A study of Mus musculus with 24 samples.

Results

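The lipid droplet coat and lipolysis genes described here are Cidea, Cideb and Cidec of the CIDE family, the perilipins Plin2, Plin3, Plin4 and Plin5, the lipase Pnpla2, its inhibitor G0s2 and its coactivator Abhd5. They were taken by name from the array's gene annotation, with every probe of each. The 10 genes were read by 15 of the 56605 probes, and all 10 passed the filter on dim probes, as did 21331 genes in all. Each gene is represented by its brightest probe, and further probes are given where they differ.

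Gene expression was measured by 1-colour oligonucleotide array in the livers of 24 male C57Bl/6J mice, 6 in each of 4 groups. LWT and LKO are the genotype labels, and the series title gives the genotypes as hepatocytes with or without PPARα. Beta3 mice received CL316243, a beta3 adrenergic receptor agonist, by gavage at 3 mg/kg at Zeitgeber time 10 h, and Vehicle mice received 0.5% carboxymethyl cellulose. All livers were taken at Zeitgeber time 16 h, from mice with free access to standard chow. The labels used here do not name the Cre driver or the deleted part of Ppara, and give no age. Each array came from a mouse of its own, so the replicates are mice.

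Hepatocytes store triglyceride in droplets whose surface carries perilipins, which limit the access of lipases, and CIDE proteins, which transfer lipid between droplets in contact. Lipolysis begins with adipose triglyceride lipase (ATGL, the product of Pnpla2), which ABHD5 activates and G0S2 inhibits. PPARα is a nuclear receptor activated by fatty acids, and several perilipin and CIDE genes are known targets of the PPAR family. Beta3 agonists act chiefly on adipocytes, where they start lipolysis and release fatty acids into the blood.

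Levels are log2 intensities minus the array's 75th percentile, so that 0 is the 75th percentile of an array, and they are compared between groups and not between genes. Scanner intensity at that percentile ran from 397.5 to 577.7, between 26985 and 34202 probes per array were well above background, and no kept probe was saturated. Of the member probes, all but that of Cidea were well above background on all 24 arrays. Ppara was lower in LKO than in LWT by 0.68 under vehicle and by 1.91 under CL316243 on its brighter probe (exact permutation test, two-sided, p = 0.00216 in both, the smallest that 924 splits allow). In the fit over all genes that probe was not called under vehicle (limma adjusted p = 0.158). With CL316243 it rose in LWT by 0.55 (limma adjusted p = 0.0377) and differed by -0.69 in LKO (limma adjusted p = 0.01). The LKO difference minus the LWT difference was -1.235 (limma adjusted p = 0.012), and the other Ppara probe was called in the same directions for all of these. The other Ppara probe was called lower in LKO, by a difference of -0.92 under vehicle (limma adjusted p = 0.0187 over all kept probes) and of -2.09 under CL316243 (limma adjusted p = 5.81e-08). Whether either probe lies in the deleted part is not given in the sources used here.

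After CL316243, 8 of the 10 genes rose in LWT livers, led by Cidec, Plin2, G0s2 and Plin4, and 7 rose in LKO livers, led by Plin4 and Cidec. On these brightest probes Cideb was called in neither genotype, and none of the 10 was called lower in either. G0s2 differed by -1.23 in LKO, which was not called (limma adjusted p = 0.0807). The 7 in LKO include Cidea, a dim gene that was near background in most LKO vehicle mice, and 6 rose there with normexp background correction or with the authors' series table. Calls are limma adjusted p under 0.05 over all genes (Benjamini-Hochberg). In LWT, 38.4% of all genes tested were called, 18.9% higher and 19.4% lower, and in LKO 40.3% were, 20.9% higher and 19.4% lower. The median difference of the 10 genes was 2.27 in LWT and 1.02 in LKO, against medians of 0.01 and 0.03 over all genes tested.

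On the brightest probe the response differed between genotypes for 5 of the 10. It was smaller in LKO for Cidec and Plin5, lower in LKO and not called there for G0s2 and Pnpla2, and larger in LKO for Plin3. The interaction (the LKO response minus the LWT response) was called for 5.41% of all genes, 2.17% positive and 3.24% negative. Under vehicle, Plin5 was the only member called between genotypes, lower in LKO, against 1.18% of all genes, 0.398% higher and 0.778% lower. Under CL316243, 8 of the 10 were called on that probe: Cidea, Cidec, Plin2, Plin5, G0s2 and Pnpla2 were lower in LKO, and Plin3 and Abhd5 were higher. Among all genes 15.9% were called there, 7.74% higher and 8.17% lower. The comparisons share groups, so their counts are not independent of each other.

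**Figure D1:**
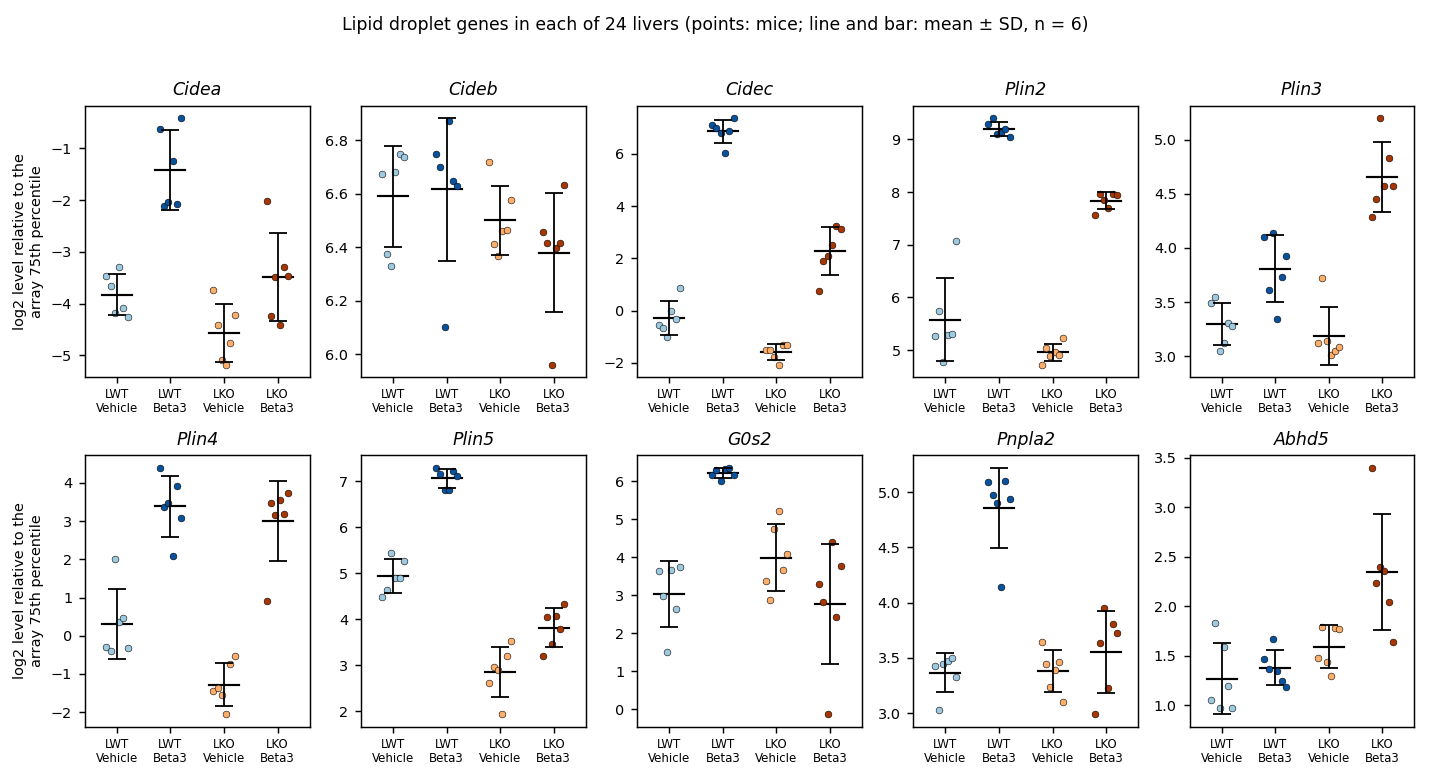
Log2 level relative to the array's 75th percentile of each gene in each of the 24 livers, 6 per group, with the mean and SD. Cidea, Cidec, Plin2, Plin4, Plin5, G0s2 and Pnpla2 of LWT mice given CL316243 lie above all LWT vehicle mice, and the LKO points of G0s2 and Pnpla2 overlap between treatments.

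**Figure D2:**
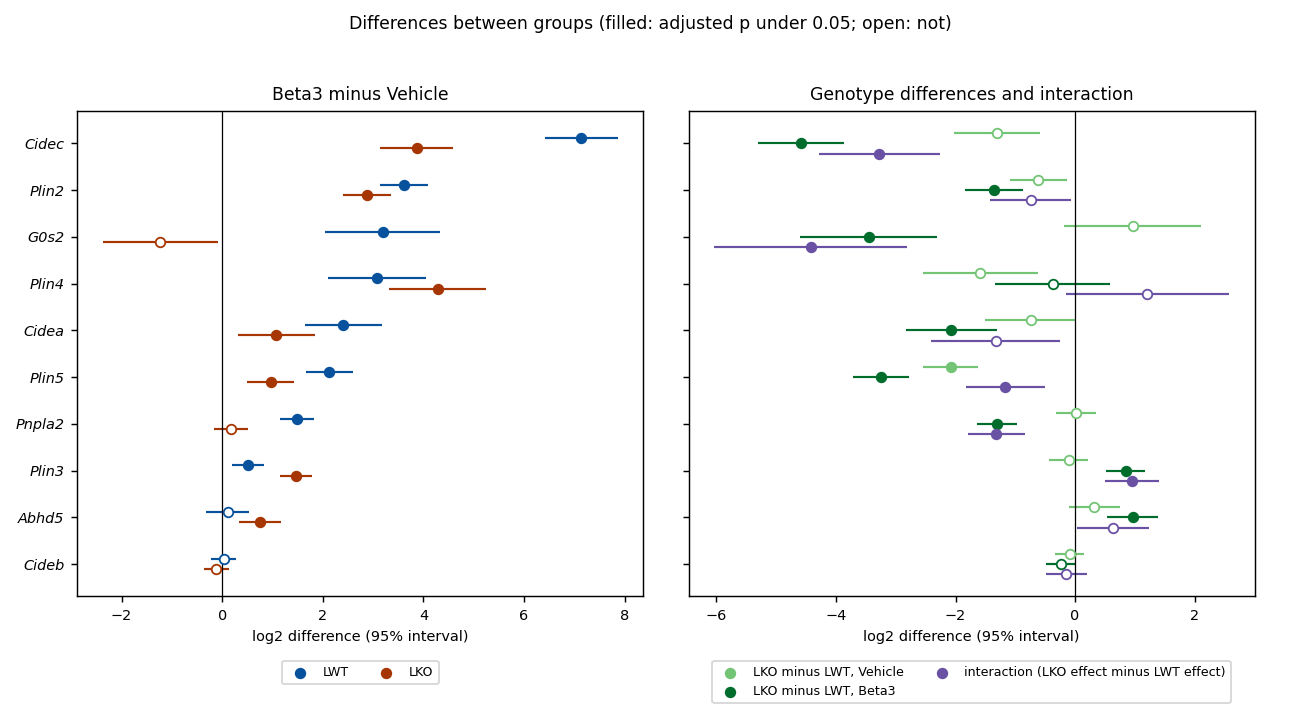
Log2 differences with 95% intervals for the 10 genes, CL316243 against vehicle in each genotype on the left, and genotype differences and the interaction on the right. Filled points passed an adjusted p of 0.05. Cidec has the largest LWT difference of the 10, 7.14, and Plin4 the largest in LKO, 4.29.

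Promoters of 4 genes are shown because PPARα with its partner RXR is known to bind a pair of AGGTCA repeats 1 base apart, and these 4 genes were among those that differed between genotypes under CL316243. The motif AGGTCANAGGTCA was searched on both strands in RefSeq windows of 300 bases (build GRCm38.p6, 250 before the start and 50 from it) for the 9 members that have one, and the best match of the 12 fixed bases is in capitals. Where matches tied, the first from the 5′ end was marked, and equally good later ones, as in Pnpla2, are not shown. Only bases before the gene's outermost start are printed, 5′ to 3′ on the gene's strand.
Plin2, minus strand, chr4:86670218-86670309: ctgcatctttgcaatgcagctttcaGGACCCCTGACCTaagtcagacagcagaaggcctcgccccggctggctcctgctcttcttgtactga
Cidec, minus strand, chr6:113435761-113436010: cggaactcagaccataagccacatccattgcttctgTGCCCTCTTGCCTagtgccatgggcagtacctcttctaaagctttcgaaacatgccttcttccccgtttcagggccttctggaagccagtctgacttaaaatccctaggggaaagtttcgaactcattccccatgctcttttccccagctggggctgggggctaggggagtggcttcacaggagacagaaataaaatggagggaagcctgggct
Plin5, minus strand, chr17:56117607-56117798: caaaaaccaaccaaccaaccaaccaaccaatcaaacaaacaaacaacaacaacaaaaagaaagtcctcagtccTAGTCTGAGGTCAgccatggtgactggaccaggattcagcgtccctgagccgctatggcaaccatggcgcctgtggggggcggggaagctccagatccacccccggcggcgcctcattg
Pnpla2, plus strand, chr7:141454938-141455187: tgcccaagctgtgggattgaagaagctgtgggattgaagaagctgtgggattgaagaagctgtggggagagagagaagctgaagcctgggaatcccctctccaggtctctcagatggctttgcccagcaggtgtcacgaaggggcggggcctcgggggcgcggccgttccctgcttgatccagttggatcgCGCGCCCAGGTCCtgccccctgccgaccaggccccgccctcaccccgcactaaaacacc
The Plin2 match, from -225 to -213 with the window's own start as 0, had 2 mismatches, and 3.86% of 32851 promoter windows held a match as good. For Plin2 and Plin5 the window's start lies downstream of the gene's outermost start, where the printed stretch ends. Matches in Cidec (-214 to -202), Plin5 (-177 to -165), Plin3, Cideb and G0s2 had 3 mismatches, as did or bettered 24.6% of windows. Cidec and Plin5 each had another window that is not printed. Its best match had 4 mismatches for Cidec, and 3 for Plin5 (6 to 18, after the window's start). Plin4 and Abhd5 had 4 (79.8%), and Pnpla2 had 5 (99.9%). These letters describe the window and show no binding, and a poor match says nothing of sites elsewhere.

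Cidec, a CIDE gene, showed the largest response of all 10 in LWT and the second largest, after Plin4, in LKO. It encodes the droplet fusion protein FSP27 (probe at chr6:113374693-113374752 in build mm9, used for all probes). In LWT vehicle mice its level ran from -1.0 through a median of -0.44 to 0.86, and with CL316243 from 6.02 through 6.93 to 7.37. The LKO levels ran from -2.07 through -1.52 to -1.31 under vehicle and from 0.74 through 2.31 to 3.25 with CL316243. Within each genotype the treatment groups did not overlap, and the highest treated LKO mouse lay below the lowest treated LWT mouse. The rise was 7.14 in LWT (141-fold, 95% interval 85.7 to 232, limma adjusted p = 3.89e-12) and 3.86 in LKO (14.5-fold, 8.85 to 23.9, limma adjusted p = 6.02e-08). The interaction was -3.28 (SE 0.49, limma adjusted p = 0.000154), and it was -3.21, -4.05 and -2.57 within the 3 slides, each of which held 2 mice of every group.

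Under CL316243 Cidec was 23.9-fold lower in LKO than in LWT (limma adjusted p = 1.45e-09). Under vehicle its genotype groups also did not overlap, yet the difference of -1.30 was not called (limma adjusted p = 0.0749). It was called without LWT vehicle replicate 3 (adjusted p = 0.0444) and without LKO Beta3 replicate 1 (adjusted p = 0.0191).

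Cidea, a CIDE gene best known from brown fat, was dim (probe at chr18:67527351-67527410). It was well above background on 6 of 6 arrays in both LWT groups, on 2 of 6 in LKO vehicle and on 5 of 6 in LKO Beta3. Its level ran from -4.27 through -3.86 to -3.30 in LWT vehicle, and with CL316243 from -2.11 through -1.64 to -0.41, with no overlap. Among LKO mice it ran from -5.18 through -4.59 to -3.74 under vehicle and from -4.42 through -3.48 to -2.03 with CL316243, and these overlapped. The LWT rise was 2.41 (SE 0.37, limma adjusted p = 2.31e-05), and 1.40 with normexp background correction in place of the scanner's. Normexp was run with an offset of 50 added to each intensity, which by itself narrows log2 differences of dim probes. The LKO rise was 1.08 (SE 0.37, limma adjusted p = 0.0227), but that call was lost with normexp (0.47, adjusted p = 0.0702), with the authors' series table (0.54, adjusted p = 0.0835), and without LKO vehicle replicate 3 (adjusted p = 0.0524), LKO vehicle replicate 4 (adjusted p = 0.0557) or LKO Beta3 replicate 1 (adjusted p = 0.0659). The interaction of -1.33 was not called (95% interval -2.41 to -0.25, limma adjusted p = 0.157), except without LKO Beta3 replicate 1 (adjusted p = 0.0439). Treated LKO mice were below treated LWT mice by a difference of -2.07 (limma adjusted p = 0.000296), with overlap, and by -1.15 with normexp.

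Cideb is the CIDE gene of normal hepatocytes, where it acts in very low density lipoprotein lipidation (probe at chr14:56372942-56373001). Its group medians were 6.68 in LWT vehicle, 6.67 in LWT Beta3, 6.46 in LKO vehicle and 6.42 in LKO Beta3, and every group overlapped every other. The treatment difference was 0.03 in LWT (95% interval -0.22 to 0.27) and -0.12 in LKO (-0.37 to 0.13). A second Cideb probe, near the transcript's 5′ end, fell in LKO by 0.51 (limma adjusted p = 0.000104 over all kept probes), with no overlap between treatments. Its interaction of -0.46 (limma adjusted p = 0.0281) and its treated genotype difference of -0.28 (limma adjusted p = 0.0323) were also called over all kept probes. On the brightest probe neither was called, so the 2 probes of Cideb disagree, and the difference between them was not tested.

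Plin2 encodes the perilipin that coats most hepatocyte droplets (probe at chr4:86302847-86302906). Its level in LWT ran from 4.78 through 5.30 to 7.06 under vehicle and from 9.05 through 9.16 to 9.40 with CL316243. LKO values ran from 4.73 through 4.93 to 5.22 and from 7.57 through 7.90 to 7.97. Treated mice lay above vehicle mice with no overlap in both genotypes, and treated LKO mice lay below treated LWT mice with no overlap. Plin2 rose by 3.61 in LWT (12.2-fold, limma adjusted p = 1.39e-10) and by 2.88 in LKO (7.34-fold, limma adjusted p = 1.81e-08), so that most of its response on the log2 scale was also measured in LKO.

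The Plin2 interaction of -0.74 was not called on the brightest probe (95% interval -1.42 to -0.06, limma adjusted p = 0.224). It was -1.04 without LWT vehicle replicate 6, the mouse at 7.06 (adjusted p = 0.000636). The array annotation places the second Plin2 probe near the start of the transcript by its transcript base but downstream of the brightest probe by its genome position, so its place in the gene is uncertain. It gave 3.79 in LWT and 2.29 in LKO, and its interaction of -1.50 was called (limma adjusted p = 0.00132 over all kept probes). The genotype difference under CL316243 was called on both probes, at -1.36 (limma adjusted p = 0.000196) and -1.85 (limma adjusted p = 2.32e-07).

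Plin5 encodes the perilipin of oxidative tissues that places droplets beside mitochondria (probe at chr17:56251025-56251084), and it differed most by genotype without treatment. In LWT it ran from 4.49 through 4.90 to 5.45 under vehicle and from 6.82 through 7.13 to 7.30 with CL316243. Levels in LKO mice ran from 1.94 through 2.94 to 3.54 and from 3.21 through 3.92 to 4.33. Every LKO mouse, treated or not, lay below every LWT mouse of either treatment. Under vehicle Plin5 was 4.23-fold lower in LKO (95% interval 3.07 to 5.84, limma adjusted p = 2.95e-06), and under CL316243 it was 9.50-fold lower (6.88 to 13.1, limma adjusted p = 2.91e-10).

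Plin5 rose by 2.13 in LWT (limma adjusted p = 1.89e-07) and by 0.96 in LKO (limma adjusted p = 0.00162), where the treatment groups overlapped. Its interaction of -1.17 lay near the threshold (SE 0.32, limma adjusted p = 0.0309) and was -1.06, -1.44 and -1.0 within the slides. It was lost with no filter on dim probes (adjusted p = 0.0684). It was also lost without LWT vehicle replicate 1 (-1.07, adjusted p = 0.0602) or 2 (-1.11, adjusted p = 0.0532), LWT Beta3 replicate 2 (-1.15, adjusted p = 0.0513) or 5 (-1.14, adjusted p = 0.0536), LKO vehicle replicate 5 (-1.10, adjusted p = 0.0561) or 6 (-1.03, adjusted p = 0.0514), or LKO Beta3 replicate 1 (-1.04, adjusted p = 0.0536). The second Plin5 probe gave 2.25, 1.05 and an interaction of -1.19 (limma adjusted p = 0.0315 over all kept probes).

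Plin4, a perilipin of nascent droplets that is abundant in white fat (probe at chr17:56240055-56240114), rose in both genotypes. In LWT its level ran from -0.40 through 0.04 to 2.02 under vehicle and from 2.08 through 3.42 to 4.39 with CL316243. In the LKO groups the level ran from -2.05 through -1.41 to -0.52 and from 0.92 through 3.33 to 3.74. The treatment groups did not overlap in either genotype, and the treated groups overlapped each other across genotypes. The rise was 3.08 in LWT (8.45-fold, 95% interval 4.32 to 16.5, limma adjusted p = 2.1e-05) and 4.29 in LKO (19.5-fold, 9.98 to 38.1, limma adjusted p = 5.92e-07).

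The Plin4 interaction of 1.21 was not called (95% interval -0.16 to 2.57, limma adjusted p = 0.352). The treated genotypes differed by -0.38 (95% interval -1.34 to 0.59, limma adjusted p = 0.662), and by 0.04 without LKO Beta3 replicate 1. Under vehicle the LKO mice lay below all LWT mice by -1.58, a difference that was not called (limma adjusted p = 0.139) except without LKO Beta3 replicate 1 (adjusted p = 0.0409).

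Plin3 encodes TIP47, a perilipin that moves from the cytosol onto new droplets (probe at chr17:56418429-56418488), and it was the only member with a called positive interaction. Its level in LWT ran from 3.05 through 3.29 to 3.55 under vehicle and from 3.34 through 3.83 to 4.14 with CL316243, with overlap. LKO mice ran from 3.02 through 3.10 to 3.72 and from 4.29 through 4.57 to 5.20, without overlap, and every treated LKO mouse lay above every treated LWT mouse. Plin3 rose by 0.51 in LWT (limma adjusted p = 0.0123) and by 1.46 in LKO (limma adjusted p = 4.61e-07). The interaction was 0.95 (SE 0.22, limma adjusted p = 0.0107), and 1.25, 0.65 and 0.97 within the slides. Under vehicle the genotypes differed by -0.11 (95% interval -0.43 to 0.21).

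Of the lipase and its regulators, Pnpla2 and G0s2 both rose in LWT and neither was called in LKO. Pnpla2 (probe at chr7:148645928-148645987) ran in LWT from 3.03 through 3.44 to 3.50 under vehicle and from 4.14 through 4.96 to 5.11 with CL316243. The LKO mice ran from 3.10 through 3.42 to 3.64 and from 2.99 through 3.68 to 3.95, with overlap. The LWT rise was 1.49 (2.81-fold, 95% interval 2.23 to 3.55, limma adjusted p = 3.08e-07), and the LKO difference was 0.18 (95% interval -0.16 to 0.51, limma adjusted p = 0.411). The interaction was -1.32 (SE 0.23, limma adjusted p = 0.00088) and was -0.52, -1.90 and -1.53 within the slides. The genotypes differed by 0.01 under vehicle (95% interval -0.33 to 0.35) and by -1.31 with CL316243 (limma adjusted p = 3.39e-06), without overlap in the latter.

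G0s2 had the largest interaction of the 10 and the widest spread in treated LKO livers (probe at chr1:195098925-195098984). In LWT it ran from 1.50 through 3.30 to 3.74 under vehicle and from 6.00 through 6.23 to 6.35 with CL316243. Its LKO levels ran from 2.86 through 3.88 to 5.21 under vehicle and from -0.13 through 3.05 to 4.40 with CL316243. All treated LWT mice lay above all other mice of the study, and their SD was 0.13, against 1.58 in treated LKO mice. The LWT rise was 3.19 (9.15-fold, 95% interval 4.14 to 20.2, limma adjusted p = 9.08e-05).

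In LKO the G0s2 difference was -1.23 (95% interval -2.37 to -0.08) and was not called (limma adjusted p = 0.0807). It was -0.65 without LKO Beta3 replicate 3, the mouse at -0.13, and was called without LKO vehicle replicate 2 (-1.45, adjusted p = 0.0494) or LKO Beta3 replicate 4 (-1.55, adjusted p = 0.0257). Within the slides it was -3.07, 0.41 and -1.02. The interaction was -4.42 (SE 0.78, limma adjusted p = 0.00097), and -6.69, -2.44 and -4.14 within the slides. Under CL316243 G0s2 was 11-fold lower in LKO (limma adjusted p = 8.93e-05), and under vehicle the genotypes differed by 0.96 (95% interval -0.18 to 2.11), with overlap.

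Abhd5, the coactivator CGI-58, was read by 3 probes (the brightest at chr9:122288857-122288916). Its level in LWT ran from 0.97 through 1.12 to 1.83 under vehicle and from 1.19 through 1.36 to 1.67 with CL316243. LKO livers ran from 1.30 through 1.63 to 1.79 and from 1.64 through 2.30 to 3.40, and the treatment groups overlapped in both genotypes. Abhd5 rose in LKO by 0.75 (SE 0.21, limma adjusted p = 0.00565), while the LWT difference was 0.11 (95% interval -0.32 to 0.54). The interaction of 0.64 was not called (limma adjusted p = 0.24), and treated LKO mice were above treated LWT mice by 0.96 (limma adjusted p = 0.00192). The other probes gave LKO rises of 0.60 and 0.64, and the one on another transcript also rose in LWT, by 0.40 (limma adjusted p = 0.0326 over all kept probes). On that probe the treated genotypes differed by 0.35, which was not called (limma adjusted p = 0.114), and the interaction was 0.24, while the third probe gave a called genotype difference of 0.91 (limma adjusted p = 0.00606).

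**Figure D3:**
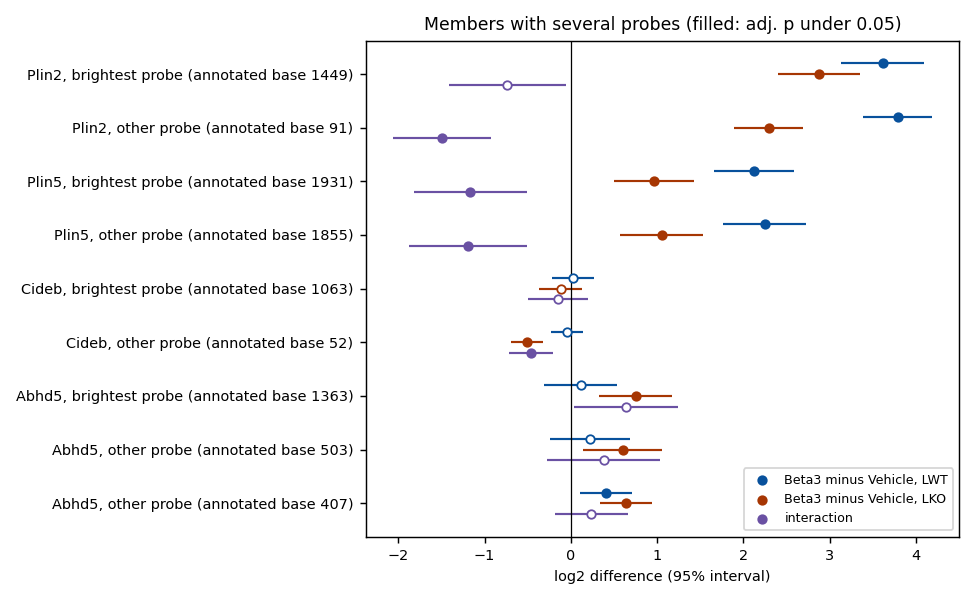
Log2 differences with 95% intervals for the 4 genes with more than 1 probe, CL316243 against vehicle in LWT and LKO and the interaction, with each probe's first transcript base as annotated (for the other Plin2 probe this conflicts with its genome position). Filled points passed an adjusted p of 0.05. The brighter Plin2 probe has an open interaction point at -0.74 and the other a filled one at -1.50, and for Cideb the 5′ probe alone is filled in LKO.

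As a background for the probe calls, 37.6% of the 32037 kept probes were called for CL316243 in LWT, 41.0% in LKO, 5.95% for the interaction, 1.10% between genotypes under vehicle and 15.4% between genotypes under CL316243. The other probes of Plin5 and Plin2 gave the same direction as the brightest in each of the 5 comparisons.

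Of 25 other droplet proteins tested, 8 rose (32%, against 18.9% of all genes) and 3 fell (12%, against 19.4%) in LWT. In LKO 6 rose (24%, against 20.9%) and 4 fell (16%, against 19.4%), shares near those of all genes. The list's median difference was 0.17 in LWT and 0.02 in LKO. Hilpda, an inhibitor of ATGL, rose by 4.06 in LWT (from a median of -0.50 to 3.69, limma adjusted p = 6.42e-09) and by 1.53 in LKO (from -0.22 to 0.93, limma adjusted p = 0.00102), with an interaction of -2.52 (limma adjusted p = 0.00206). Fitm2, which acts in droplet budding from the endoplasmic reticulum, rose by 1.39 in LWT and had an interaction of -1.35 (limma adjusted p = 0.00111). The interaction was called negative for 4 of the 25 (16%, against 3.24% of all genes) and positive for Sqle, a squalene epoxidase, at 1.24 (limma adjusted p = 0.0166). Sqle fell by 0.60 in LWT (limma adjusted p = 0.0308), where Rab8a, a small GTPase, fell by 0.24 (limma adjusted p = 0.00201). In LKO Vps13c, a lipid transfer protein, rose by 0.76, and Bscl2, which encodes seipin, and Mettl7b fell by 0.51 and by 0.37.

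Under vehicle 1 of the 25 was higher and 2 were lower in LKO (4% and 8%, against 0.398% and 0.778% of all genes). Fitm1, the muscle-type partner of Fitm2, differed by -2.40 (limma adjusted p = 8.34e-06) and Hsd17b11, a droplet dehydrogenase, by -1.25 (limma adjusted p = 0.000559), and Aup1 by 0.27 (limma adjusted p = 0.0393). Fitm1 also differed by -2.51 under CL316243 (limma adjusted p = 5.14e-07), with treatment differences of -0.33 in LWT and -0.44 in LKO that were not called. With CL316243 6 of the 25 were lower in LKO (24%, against 8.17% of all genes), Hilpda by a difference of -2.33, and 1, Sqle, was higher, by 1.12.

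Of 18 other neutral lipid hydrolases and lipophagy genes, 5 rose and 5 fell in LWT (27.8% each, against 18.9% and 19.4% of all genes), and 1 rose and 8 fell in LKO (5.56% and 44.4%, against 20.9% and 19.4%). The list's median difference was -0.11 and -0.35. Nceh1, a neutral cholesterol ester hydrolase, rose by 2.57 in LWT, from a median of 2.05 to 4.62 (limma adjusted p = 9.26e-10), and gave 0.36 in LKO, from 0.99 to 1.35 (limma adjusted p = 0.138). Ddhd2, a triglyceride lipase best known from brain, rose by 1.97 in LWT, while Pnpla3, a droplet lipase of hepatocytes, fell by 2.83 and Lpl, lipoprotein lipase, fell by 0.65. The interaction was called negative for 5 of the 18 (27.8%, against 3.24% of all genes) and positive for none by limma, with the largest at -2.21 for Nceh1 (limma adjusted p = 1.15e-05) and -1.67 for the monoacylglycerol lipase Abhd6 (limma adjusted p = 1.09e-06). In LKO Mgll, another monoacylglycerol lipase, rose by 0.56, and the carboxylesterases Ces1d and Ces1g fell by 0.68 and by 0.61.

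Between genotypes, 3 of the 18 were lower in LKO under vehicle (16.7%, against 0.778% of all genes), with differences of -1.06 for Lpl (limma adjusted p = 0.0078) and -1.01 for Nceh1 (limma adjusted p = 0.00414). With CL316243 8 were lower and 1 was higher in LKO (44.4% and 5.56%, against 8.17% and 7.74% of all genes). Nceh1 differed by -3.22, Ddhd2 by -2.49 and Ces2c by 0.78.

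**Figure D4:**
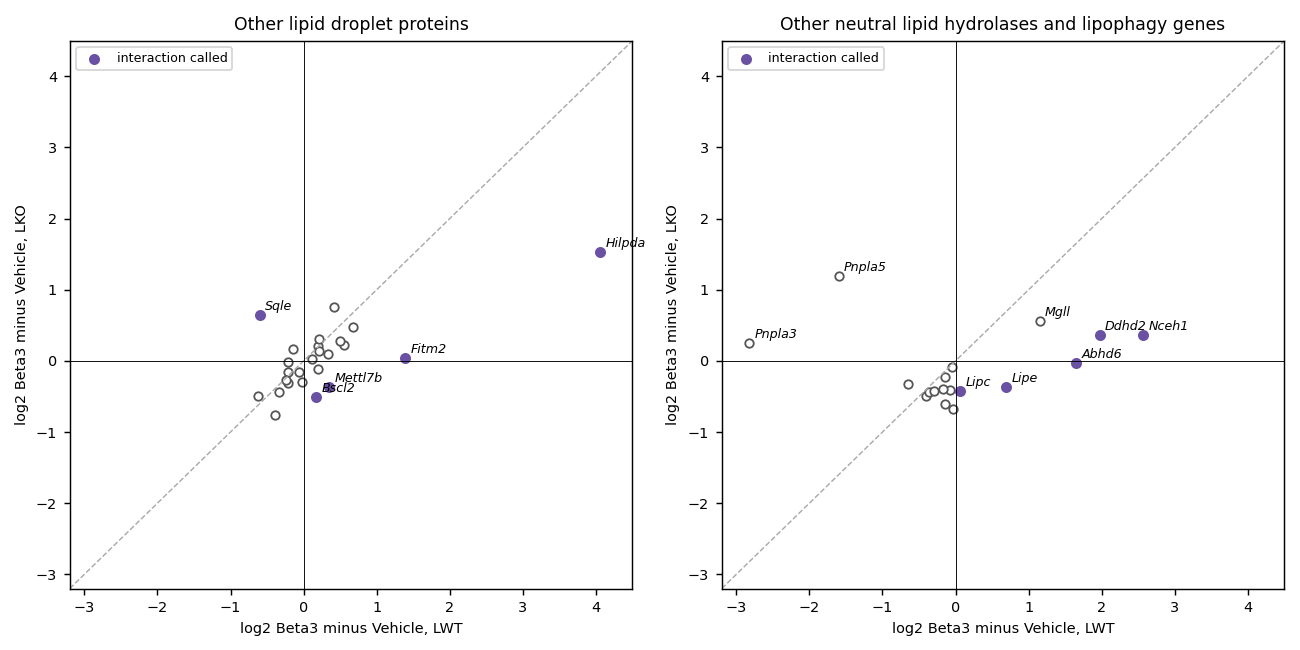
Log2 difference between CL316243 and vehicle in LKO against that in LWT, 1 point per gene, for 25 other droplet proteins and 18 other hydrolases and lipophagy genes. The dashed line marks equal differences, and filled points have a called interaction. Both axes use the same vehicle-to-treated contrast within a genotype, and Hilpda, Nceh1, Ddhd2, Abhd6 and Fitm2 lie to the right of the line.

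For each member called at least once, the 3 genes of nearest pattern were found by Euclidean distance between the 4 centred group means. Only tested genes with an ordinary symbol were ranked, so a gene listed under an identifier alone may lie nearer than those given here. Nearest to Cidec were Cyp4a14 (distance 1.62), Agpat9 (1.76) and Rab30 (1.83), the farthest neighbours of any member. Nearest to Plin5 were Lgals6 (0.13) and Lgals4 (0.19), galectin genes named alike, followed by Slc35f2 (0.43). Plin2 lay nearest Atg9b (0.44), Slc22a5 (0.50) and Ppp1r3g (0.51), and Plin4 nearest Saa1 (0.39), E2f8 (0.48) and Psat1 (0.60). Pnpla2 lay nearest Krt79 (0.03), Scn4b (0.06) and Gpcpd1 (0.08), and G0s2 nearest Acot3 (0.51), Palb2 (0.66) and Olfr15 (0.78). Plin3 lay nearest Gdap9 (0.05), Haus8 (0.08) and Hist1h3a (0.09), Abhd5 nearest Krt81 (0.05), Brox (0.10) and Rragd (0.11), and Cidea nearest Slc16a5 (0.27), Hsdl2 (0.29) and Slc30a8 (0.32).

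Cidea, Cidec and Plin4 are also genes of adipocytes, and in whole liver fewer cells of a type and less RNA per cell cannot be told apart. The summed linear level of 7 white adipocyte markers was 2.44 to 4.27 in LWT vehicle, 4.37 to 32.8 in LWT Beta3, 2.15 to 3.08 in LKO vehicle and 4.06 to 9.90 in LKO Beta3. Of the 5 of these 7 that were tested, the fatty acid binding protein gene Fabp4 alone was called for treatment, and it rose by 2.86 in LWT (limma adjusted p = 1.47e-06) and by 1.63 in LKO (limma adjusted p = 0.00081). Most of the summed level in LWT Beta3 was Fabp4, whose mean log2 level there was 3.78, against -1.02 for Lep, the next brightest. Under CL316243 Fabp4 differed by -1.34 between LKO and LWT (limma adjusted p = 0.00971). Cfd, which encodes adipsin, was lower in LKO, by a difference of -3.61 under vehicle (limma adjusted p = 0.0145) and of -2.34 under CL316243 (limma adjusted p = 0.0394), and was well above background on 2 and 3 of 6 LKO arrays. Lep was well above background on all arrays of each group, Retn on 5 or 6 of 6 and Adig on 5 of 6, and none of these 3 was called by limma in any of the 5 comparisons. Adipoq was well above background on 0, 1, 3 and 2 of 6 arrays in LWT vehicle, LWT Beta3, LKO vehicle and LKO Beta3, and Trarg1 on 0 in every group. The highest Adipoq level in LKO Beta3 was -0.70, against a median of -5.08 there, and no mouse of the other groups exceeded -4.38. Plin1, the adipocyte perilipin, gave -0.06 in LWT (limma adjusted p = 0.896) and -0.16 in LKO (limma adjusted p = 0.682). Of 3 brown adipocyte markers, in the same order of groups, Ucp1 was well above background on 0, 0, 0 and 1 of 6 arrays. Cox8b was so on 1, 0, 1 and 2, and Cox7a1 on all arrays of each group. By limma Cox7a1 was called in none of the 5 comparisons, and the other brown markers were not tested. The part of these markers in the member differences was not tested.

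The liver label was borne out by 6 of 6 hepatocyte markers well above background in every group. Among these 6 only Apoa1 was called by limma in any comparison, at -0.25 for CL316243 in LKO (limma adjusted p = 0.0308). Summed Kupffer cell markers ran from 39.0 to 91.5 over the 24 livers, and none of the 6 was called by limma in any comparison. Summed stellate markers ran from 37.2 to 47.0 in LWT vehicle and from 45.6 to 55.9 in LWT Beta3, and from 34.7 to 46.3 and 43.1 to 54.8 in LKO. Most of this sum was Ecm1, whose mean log2 level in LWT vehicle was 5.28, against 1.85 for Reln, the next brightest. Of the 6 stellate markers, Hand2 rose by 0.55 (limma adjusted p = 0.00426) and Lrat fell by 0.71 (limma adjusted p = 0.00976) in LWT, and Ecm1 rose by 0.27 in LKO (limma adjusted p = 0.0134).

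Summed endothelial markers ran from 37.0 to 40.4 in LWT vehicle, 39.7 to 46.9 in LWT Beta3, 33.4 to 44.4 in LKO vehicle and 33.6 to 45.8 in LKO Beta3, and the 5 genes moved in different directions. Lyve1 rose by 1.18 in LWT and by 2.39 in LKO (limma adjusted p = 0.00799 and 1.16e-05), Kdr fell by 0.40 and by 0.56 (limma adjusted p = 0.0492 and 0.00628), Pecam1 rose by 0.49 in LWT (limma adjusted p = 0.00614), and Clec4g and Stab2 were not called. Of 4 cholangiocyte markers, Sox9 rose by 1.47 and by 2.18 (limma adjusted p = 0.00168 and 3.53e-05), and Epcam, Krt7 and Krt19 were not called. The part of these cell types in the results was not tested.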

How the data were processed

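The scanner tables hold an intensity for each spot on a linear scale, which the authors' scanner software had already background-subtracted, with marks for spot quality. Per the file headers this software was Feature Extraction version 10.10.1.1 from Agilent. The submitters' processing notes also name limma. The log2 values in the series table the authors deposited differed from quantile-normalized log2 median signals by a median absolute difference of 0.0069 after centring, and were used as an alternative.

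Here, control and outlier spots were dropped, repeat spots of a probe were averaged, and the 75th percentile that the scanner recorded for the array was subtracted after log2 transformation. The filter kept the 32037 probes that were marked well above background on 4 or more of the 6 arrays in some group and had 3 or more values in each, and the brightest kept probe stood for its gene (21331 genes). One mean per group was fitted over 24 arrays with limma 3.58.1 in R 4.3.3 (prior df 2.17, residual df 20), with 5 comparisons and Benjamini-Hochberg adjustment within each at 0.05. The median SE of a log2 difference was 0.13, and 0.19 for the interaction, and the number of arrays limits the precision. The fit was checked on simulated data. The members, gene lists, marker lists and tests were chosen with earlier results of these data known.

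The text names all members, Ppara, the called genes of the 2 lists with the 2 largest positive and 2 largest negative differences in each comparison, and the 3 nearest patterns of each member called at least once. Plin1, the marker genes given singly, and values of named genes beyond their own comparison, were added after values were seen. Alternatives covered scaling, background correction, filter, probe choice, slide, replicate number, the arrays fitted, the threshold, the deposited log2 values and leaving out each mouse. Probe names and positions are those of the array annotation (mm9), and promoters are from RefSeq (GRCm38.p6), matched by symbol for 9 of 10 members. Proteins were not used here.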

Additional observations from a re-analysis of the deposited data

Results flagged for a closer look

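In 7 of 40 gene and group combinations the highest or lowest mouse stood apart from the other 5 by Dixon's test, where chance gives about 1 in 20. Cideb was low in LWT Beta3 replicate 3 (6.10) and in LKO Beta3 replicate 3 (5.96). Plin3 was high in LKO vehicle replicate 2 (3.72). Plin4 was high in LWT vehicle replicate 3 (2.02) and low in LKO Beta3 replicate 1 (0.92). Pnpla2 was low in LWT vehicle replicate 2 (3.03) and in LWT Beta3 replicate 4 (4.14). No call of Plin3 or Pnpla2 was lost on leaving out any 1 mouse.

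For 5 genes the response to CL316243 differed between genotypes by the interaction term in limma. The LKO response minus the LWT response was -4.42 for G0s2, -3.276 for Cidec, -1.317 for Pnpla2, -1.166 for Plin5 and 0.954 for Plin3. Of these, the first 3 and Plin3 were called on leaving out each of the 24 mice in turn, and Plin5 was not called on leaving out 7 of them.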

How the results depend on the processing

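Over 640 alternatives for the 10 genes in 5 comparisons, other than leaving out a mouse, 623 kept direction and call, 7 lost the call, 5 gained it and 5 changed sign; over 1200 that left out 1 mouse these were 1173, 10, 8 and 9. All that changed sign were differences that were not called. For Cideb in LWT they were -0.044 with quantile normalization, -0.045 with the series table and -0.009 with the mean of probes, and leaving out a mouse gave -0.027 to 0.129. Cideb under vehicle was 0.045 with the mean of probes (main value -0.09), Pnpla2 under vehicle was -0.006 with the series table and -0.056 to 0.068 without a mouse, and Plin4 between treated genotypes was -0.638 to 0.04 without a mouse. With the mean of probes Cideb in LKO was called (-0.31, adjusted p = 0.0111), as was the Plin2 interaction (-1.12, adjusted p = 0.0235).

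Genes called for the interaction (1153) numbered 664 with no filter and 504 at an adjusted p of 0.01. Between genotypes under vehicle (251) they numbered 167 with no filter and 141 at 0.01, and under CL316243 (3394), 2202 with 12 arrays and 1941 at 0.01. With every kept probe the counts are of probes out of 32037, not of genes. They were 1905 (5.95%, against 5.41% of genes) for the interaction. For CL316243 in LKO they were 13125 (41.0%, against 8591 genes, 40.3%). With no filter the median of all genes shifted to 0.11 in LWT and 0.10 in LKO. Members called for the interaction numbered 3 at 0.01. Members called under vehicle numbered 2 with 12 arrays, where Cidec joined Plin5 (adjusted p = 0.0349), and 1 to 3 without a mouse; the highest came without LKO Beta3 replicate 1, with Cidec and Plin4. Without LWT Beta3 replicate 3, Cideb was called between treated genotypes (-0.34, adjusted p = 0.0278).

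Whether the replicate numbers pair the mice was not decided here, since no chance level was computed for the following counts. Of 36 same-numbered pairs of arrays, 8 had correlated deviations over 0.1 (-0.18 to 0.42), and 10 of 24 arrays correlated best with their own number. With the replicate block, 2 members were called under vehicle, Cidec (adjusted p = 0.0339) joining Plin5, and G0s2 was called in LKO (adjusted p = 0.0497).

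The lowest reading was that of Cidea, whose LKO vehicle level was near background.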
